A study of Homo sapiens with 6 samples.

Results

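NRF2 (gene NFE2L2), its inhibitor KEAP1 and 7 antioxidant genes that NRF2 is known to control were followed in human cardiomyocytes depleted of the cold-inducible RNA-binding protein CIRBP. The 9 genes, NFE2L2, KEAP1, NQO1, GCLC, GCLM, TXNRD1, SRXN1, PRDX1 and TXN, were taken by symbol from the 58884 genes of the expression table, and all 9 were found. Expression profiles came from RNA-seq of 6 libraries of an immortalized human cardiomyocyte line, which the labels call T0519. The NC group had 3 libraries of control cells and the SiCIRBP group had 3 libraries of cells in which CIRBP was knocked down, in the study's text by siRNA. The study's text names AC16 as the line of its RNA-seq comparison, and it uses AC16 and T0519 as separate immortalized human ventricular lines. Which line was sequenced cannot be settled from these sources. Both groups were cultured in the same medium with serum, and the labels name no drug treatment. The labels give neither the siRNA sequences nor the time from transfection to harvest, and they do not say whether the 3 libraries of a group came from separate cultures, so p-values measure the spread between these libraries, which may be technical.

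NRF2 is a transcription factor that is made continuously and, in unstressed cells, is held by KEAP1 and marked for destruction through a CUL3 ubiquitin ligase. Oxidants and electrophiles modify cysteines of KEAP1, NRF2 then accumulates and, together with a small MAF protein, binds antioxidant response elements in front of its target genes. The targets make glutathione, keep thioredoxin and peroxiredoxins reduced, and detoxify quinones. In heart muscle this system is known for limiting oxidative injury, including that of anthracycline drugs. Because NRF2 is regulated mainly as a protein, its mRNA level is not a measure of its activity.

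The core of the antioxidant response element, TGACNNNGC or GCNNNGTCA on the opposite strand, was searched in RefSeq promoter windows (GRCh38.p14, 250 bases before to 50 bases after each annotated start). Windows were found for 8 of the 9 genes, 11 windows in all, and PRDX1 had none. The core stood in 4 windows of 3 genes, and in 13.3% of 35116 promoter windows over all genes. With the fourth base left free (TGANNNNGC, which contains each core match), 41.8% of the windows over all genes held a match. The stretch from 120 bases before the start to the start base is shown, 5′ to 3′ along the gene, for the 3 genes with a match and for SRXN1 and TXN, whose mRNAs were among those that differed most between the groups. Capitals mark the core letters.
KEAP1, chr19:10502771-10502891, minus strand: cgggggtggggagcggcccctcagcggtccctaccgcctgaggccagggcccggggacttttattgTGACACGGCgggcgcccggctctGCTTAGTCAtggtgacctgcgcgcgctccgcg
GCLM, chr1:93909430-93909550, minus strand: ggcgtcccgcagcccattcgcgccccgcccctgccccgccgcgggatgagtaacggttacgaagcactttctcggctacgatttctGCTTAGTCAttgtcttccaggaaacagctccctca
TXNRD1, chr12:104215659-104215779, plus strand: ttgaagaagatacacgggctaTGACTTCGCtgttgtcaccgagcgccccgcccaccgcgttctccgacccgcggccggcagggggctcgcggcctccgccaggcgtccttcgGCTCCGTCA
SRXN1, chr20:653200-653320, minus strand: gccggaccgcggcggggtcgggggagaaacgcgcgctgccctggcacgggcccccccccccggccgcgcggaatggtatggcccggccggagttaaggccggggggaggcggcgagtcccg
TXN, chr9:110256507-110256627, minus strand: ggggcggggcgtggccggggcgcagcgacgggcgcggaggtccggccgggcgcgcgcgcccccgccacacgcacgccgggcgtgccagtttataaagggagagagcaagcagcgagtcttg
KEAP1 held TGACACGGC at -54 and GCTTAGTCA at -31, counted from the start base as 0 to the first base of the match. The same letters, GCTTAGTCA, stood at -34 in the promoter of GCLM. TXNRD1 held TGACTTCGC at -99 and GCTCCGTCA at -8, and a second annotated start of TXNRD1 held GCTTTGTCA at -102. SRXN1 and TXN had no match to the core in their 300 bases, nor did NFE2L2, NQO1 and GCLC. Such matches are letters in a fixed window and say nothing on where NRF2 was bound in these cells.

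The 6 libraries held 25726259 to 29919566 assigned reads, and the 9 genes had between 909 and 17794 reads in a library. CIRBP, the targeted gene, stood at 86.4, 85.8 and 91.0 CPM (counts scaled to library size) in NC_1, NC_2 and NC_3 and at 54.8, 24.3 and 46.3 CPM in SiCIRBP_1, SiCIRBP_2 and SiCIRBP_3, so that the groups did not overlap. The study left NC_1 and SiCIRBP_2 out of its test because of their place in correlation and principal component plots, so each result is given over the other 4 libraries and over all 6, and these fits share libraries. That choice used the expression values themselves, so the spread within groups may be understated and the 4-library p-values too small. SiCIRBP_2 stood apart in 16 interferon-stimulated genes, whose median lay 3.72 log2 units above the NC mean, against -0.70 in SiCIRBP_1 and 0.94 in SiCIRBP_3. NC_1 stood lower in 14 genes of the ATF4 and amino acid stress response, with a median of -0.25 against the NC mean, but SiCIRBP_3 was lower still at -0.35. Of 15 cardiomyocyte marker genes, 11 were below 1 TPM (a level scaled by transcript length and library) in all 6 libraries and MYH6, MYL2, RYR2 and PLN were listed at 0. Of the others, GATA4 and ACTN2 were lower in every SiCIRBP library and NKX2-5 overlapped. TNNI3 was higher in every SiCIRBP library, at 0.86 to 2.45 TPM against 0.11 to 0.77 TPM in NC. The summed level of the 15 markers, chiefly GATA4, was 72.8 to 89.8 TPM in NC and 41.6 to 61.5 TPM in SiCIRBP. That of 7 fibroblast genes, mostly VIM, was 3944 to 4168 TPM and 3859 to 5523 TPM. Smooth muscle markers summed to 327 to 368 TPM in NC and 147 to 1254 TPM in SiCIRBP, the highest in SiCIRBP_2 through TAGLN, and 2 blood markers, chiefly CD68, to 6.92 to 7.58 TPM and 9.24 to 12.1 TPM. The 3 endothelial markers were at 0.45 TPM or less in sum. The part of these differences in the results below was not tested, and in bulk RNA fewer cells of a type cannot be told apart from less RNA per cell.

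Among the 9 genes, the mRNAs of TXN, PRDX1, SRXN1 and NQO1 rose and that of NFE2L2 fell in the SiCIRBP group over the 4 libraries, by less than 2-fold in each case. A gene passed when the quasi-likelihood test of edgeR gave it a Benjamini-Hochberg adjusted p under 0.05 over all 15421 genes tested, and all 9 genes cleared the filter on low counts. By this rule 5 of the 9 passed, 4 upregulated and 1 downregulated, where 19.4% of all genes passed, 9.62% upwards and 9.76% downwards. None of the 9 also reached a 2-fold change, which 3.62% of all genes did. The median log2 difference of the 9 genes was 0.20, against 0.00 over all genes.

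Over all 6 libraries the directions stayed as they were for each of the 9 genes, but edgeR passed none of them, with 0.0% of 15217 genes passing and a smallest adjusted p of 0.0853 over all genes. Without adjustment 5 of the 9 had a p under 0.05 in that fit, where 23.7% of all genes had one. DESeq2 passed 5 of the 9 over 6 libraries, against 9.3% of its genes, and 5 of the 9 over 4 libraries, against 23.3%. The 3 SiCIRBP libraries lay wholly above the 3 NC libraries for 5 genes and wholly below for 2, whereas 16.2% of all genes were separated upwards and 16.6% downwards. The exact permutation test of 3 against 3 libraries cannot go below p = 0.1, which these 7 genes reached. The count also turned on single libraries. Of the 9 genes, 0 passed over 3 libraries without NC_2 or without NC_3, 9 without SiCIRBP_1 and 6 without SiCIRBP_3, where 1.04%, 0.403%, 44.3% and 40.2% of all genes passed, the lone library of a group then being taken to vary like the pair of the other group.

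**Figure D1:**
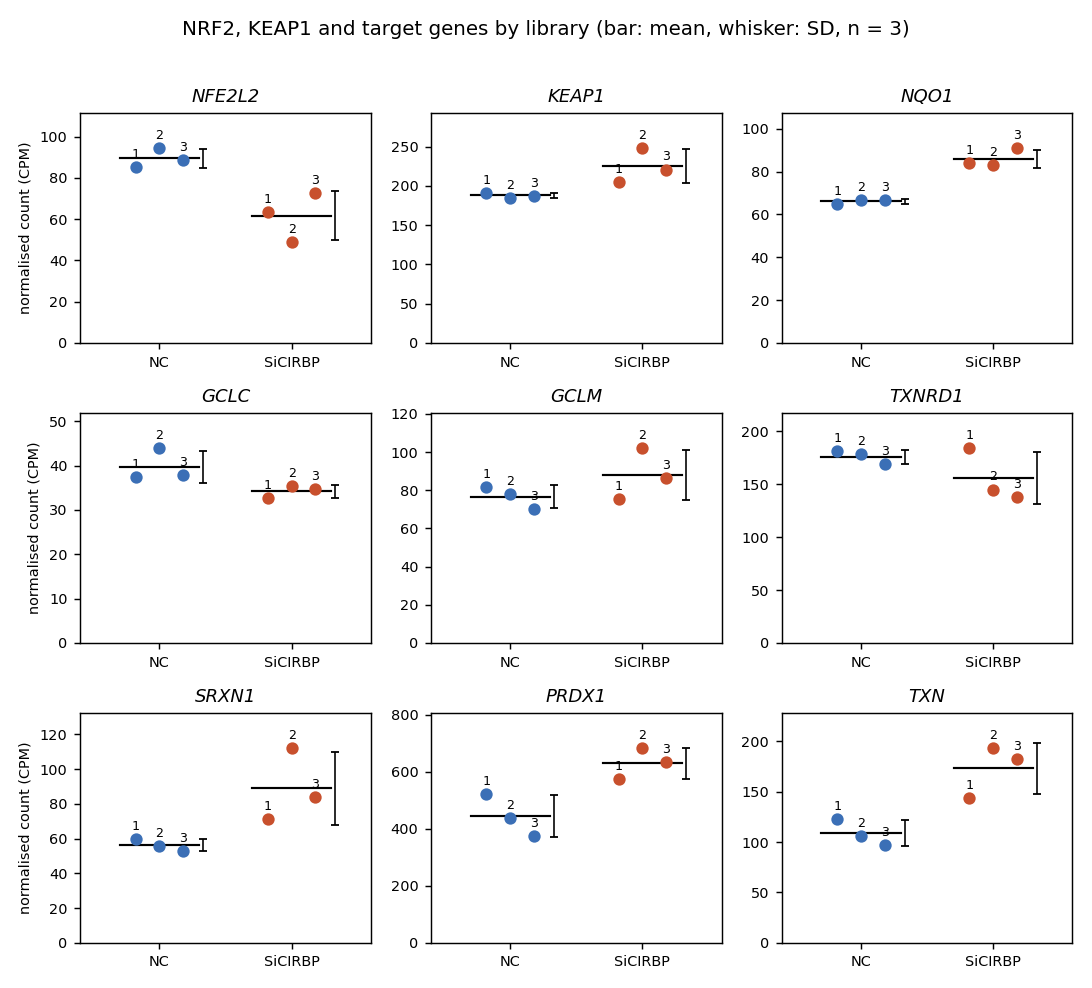
Normalised count (CPM, vertical axis from 0) of NFE2L2, KEAP1 and the 7 target genes in each library, numbered by replicate, with blue points for NC, red points for SiCIRBP, bars for the mean and whiskers for the SD of 3 libraries. The SiCIRBP points lie wholly above the NC points for KEAP1, NQO1, SRXN1, PRDX1 and TXN, wholly below for NFE2L2 and GCLC, and overlap for GCLM and TXNRD1.

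The sensor pair came first. NFE2L2 (ENSG00000116044, chr2:177227595-177392697, minus strand, GRCh38) encodes NRF2 itself. Its level was 85.3, 94.3 and 88.6 CPM in NC_1, NC_2 and NC_3 and 63.4, 48.9 and 72.5 CPM in SiCIRBP_1, SiCIRBP_2 and SiCIRBP_3. All 3 SiCIRBP libraries were below the lowest NC library, and SiCIRBP_2 was the lowest. The mean was 89.4 ± 4.54 CPM in NC and 61.6 ± 11.9 CPM in SiCIRBP (SD, n = 3). Over the 4 libraries NFE2L2 fell by 0.43 on the log2 scale (SE 0.10, edgeR adjusted p = 0.0309), to 0.743 of the NC level. Over 6 libraries the difference was -0.54 (SE 0.16, edgeR adjusted p = 0.121, DESeq2 adjusted p = 0.0422). On the TPM scale NFE2L2 stood at 56.7 ± 3.43 in NC and 34.8 ± 8.35 in SiCIRBP, and the difference over 4 libraries, in log2(TPM + 1), was -0.56 (limma adjusted p = 0.0402).

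KEAP1 (ENSG00000079999, chr19:10486120-10503741, minus strand) encodes the adaptor that captures NRF2. It was measured at 191, 185 and 187 CPM in the NC libraries and at 205, 248 and 221 CPM in the SiCIRBP libraries. The groups did not overlap, and the NC libraries lay within a narrow band, with a mean of 188 ± 3.14 against 225 ± 21.5 CPM. The log2 difference of 0.20 over 4 libraries (SE 0.08, edgeR adjusted p = 0.125) and of 0.26 over 6 (SE 0.11, edgeR adjusted p = 0.216) did not pass. In TPM the KEAP1 groups overlapped, with SiCIRBP_1 at 114 below NC_3 at 115, and the means were 112 ± 3.31 and 121 ± 5.72.

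NQO1 (ENSG00000181019, chr16:69706996-69726951, minus strand) encodes NAD(P)H quinone dehydrogenase, which fully reduces quinones and serves as a common readout of NRF2. Its level was 64.8, 66.6 and 66.9 CPM in NC and 84.0, 82.9 and 90.9 CPM in SiCIRBP. Both groups were tight and clearly apart, at 66.1 ± 1.13 and 85.9 ± 4.34 CPM. NQO1 rose 1.31-fold over the 4 libraries (log2 0.39, SE 0.09, edgeR adjusted p = 0.0279), and the difference over 6 libraries was 0.38 (SE 0.10, edgeR adjusted p = 0.114, DESeq2 adjusted p = 0.0446). In TPM the groups overlapped, because SiCIRBP_2 at 94.6 stood below NC_3 at 97.3, and the 4-library difference of 0.26 in log2(TPM + 1) did not pass (limma adjusted p = 0.0895). The whole set of genes was shifted by -0.08 in that TPM fit.

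Across the 6 libraries the log2 CPM profile of NQO1 was most like those of ZNF440 (Pearson r = 0.996), SULT1A4 (0.996), AC073896.1 (0.995), MTF1 (0.992) and CDK16 (0.991), given as a description over 6 libraries that share their library effects. CDK16, a cyclin-dependent kinase, was at 87.8, 91.1 and 94.4 CPM in NC and at 127, 126 and 133 CPM in SiCIRBP. SULT1A4 has a near-identical copy in the genome, so its low count of at most 5.24 CPM is uncertain. An r above 0.95 was reached by 78 of 15216 genes. Within the 9 genes, the r to NQO1 was 0.87 for TXN, 0.80 for PRDX1, 0.79 for KEAP1 and SRXN1, 0.49 for GCLM, -0.67 for TXNRD1, -0.73 for NFE2L2 and -0.74 for GCLC. The sign of each r was that of the gene's difference between the group means, and the NQO1 groups themselves did not overlap.

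The rate-limiting enzyme of glutathione synthesis is glutamate-cysteine ligase, made of a catalytic subunit (GCLC) and a modifier subunit (GCLM) that eases its feedback inhibition. GCLC (ENSG00000001084, chr6:53497341-53616970, minus strand) was at 37.4, 43.9 and 37.9 CPM in NC and at 32.6, 35.4 and 34.7 CPM in SiCIRBP. The groups were separated by a small gap, and the log2 difference of -0.28 over 4 libraries (SE 0.11, edgeR adjusted p = 0.129) did not pass. Over 6 libraries it was -0.22 (SE 0.12, edgeR adjusted p = 0.315).

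GCLM (ENSG00000023909, chr1:93885205-93909456, minus strand), whose promoter carries the same core letters as KEAP1, gave 81.8, 78.0 and 70.3 CPM in NC and 75.4, 102 and 86.6 CPM in SiCIRBP. The groups overlapped, with SiCIRBP_1 below NC_1 and NC_2. The log2 difference was 0.13 over 4 libraries (SE 0.11, edgeR adjusted p = 0.420) and 0.20 over 6 (SE 0.14, edgeR adjusted p = 0.406). The catalytic and the modifier subunit therefore had differences of opposite sign, of which neither passed, and the difference between the subunits was not tested. The TPM levels of GCLM, 27.3, 25.5 and 23.1 in NC and 28.7, 32.7 and 29.7 in SiCIRBP, did not overlap, and the count-to-TPM ratio of GCLM moved more between the groups than that of most genes.

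The thioredoxin arm held the 3 largest of the 9 differences over 4 libraries, in TXN, PRDX1 and SRXN1. Thioredoxin (TXN, ENSG00000136810, chr9:110243811-110256640, minus strand) reduces disulfides in other proteins. It was at 123, 106 and 97.3 CPM in NC and at 144, 193 and 182 CPM in SiCIRBP. Every SiCIRBP library exceeded every NC library, SiCIRBP_1 by the smallest margin, and the means were 109 ± 13.2 and 173 ± 25.3 CPM. TXN rose 1.6-fold over the 4 libraries (log2 0.68, SE 0.12, edgeR adjusted p = 0.0165), and the 6-library difference was 0.67 (SE 0.15, edgeR adjusted p = 0.0975, DESeq2 adjusted p = 0.00679). In log2(TPM + 1) the 4-library difference was 0.58 (limma adjusted p = 0.0529).

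Peroxiredoxin 1 (PRDX1, ENSG00000117450, chr1:45511036-45523047, minus strand) removes hydrogen peroxide and is reduced again by thioredoxin. It was the most abundant of the 9 genes, at 519.9, 436 and 376 CPM in NC and 573, 682 and 634 CPM in SiCIRBP. The groups did not overlap, although NC_1 came close to SiCIRBP_1. PRDX1 rose 1.49-fold over the 4 libraries (log2 0.57, SE 0.10, edgeR adjusted p = 0.0154), and the 6-library difference was 0.50 (SE 0.15, edgeR adjusted p = 0.119, DESeq2 adjusted p = 0.0414). With NFE2L2, PRDX1 was the other of the 5 that also passed in log2(TPM + 1), with a difference of 0.49 (limma adjusted p = 0.0429).

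Sulfiredoxin (SRXN1, ENSG00000271303, chr20:646615-653370, minus strand) repairs peroxiredoxins whose cysteine has been overoxidized. Its levels were 59.6, 56.0 and 52.9 CPM in NC and 71.0, 112 and 83.8 CPM in SiCIRBP. The SiCIRBP libraries were all higher and spread widely, at 88.9 ± 20.9 CPM against 56.2 ± 3.36 CPM. SRXN1 rose 1.42-fold over the 4 libraries (log2 0.51, SE 0.11, edgeR adjusted p = 0.0249), and the 6-library difference was 0.66 (SE 0.17, edgeR adjusted p = 0.107, DESeq2 adjusted p = 0.0191). The 4-library TPM difference of 0.41 did not pass (limma adjusted p = 0.0833).

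Thioredoxin reductase 1 (TXNRD1, ENSG00000198431, chr12:104215779-104350305, plus strand) returns electrons from NADPH to thioredoxin. Unlike its substrate TXN, it did not pass, and its groups overlapped, at 181, 179 and 169 CPM in NC and 184, 145 and 138 CPM in SiCIRBP. SiCIRBP_1 was above all NC libraries while SiCIRBP_2 and SiCIRBP_3 were below them. The log2 difference was -0.11 over 4 libraries (SE 0.14, edgeR adjusted p = 0.597) and -0.18 over 6 (SE 0.14, edgeR adjusted p = 0.436), and without SiCIRBP_3 it turned to 0.08. Without SiCIRBP_1 it was -0.34, with SiCIRBP_3 as the only library of its group.

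**Figure D2:**
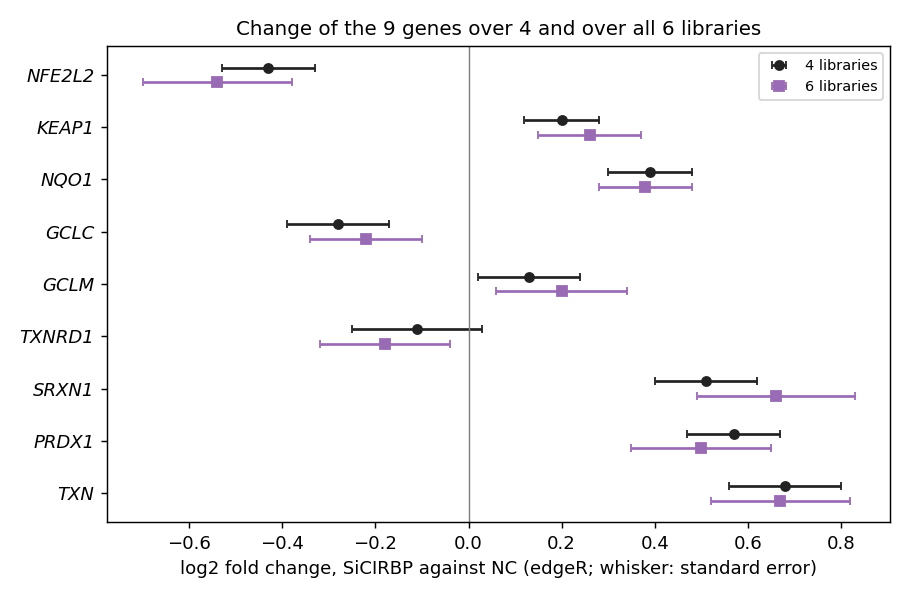
Log2 fold change of SiCIRBP against NC (horizontal axis) for the 9 genes, with black circles for the 4 libraries, purple squares for all 6 and whiskers for the standard error of the edgeR fit. The sign is the same in both fits for each gene, with TXN, PRDX1, SRXN1 and NQO1 to the right, NFE2L2 to the left and TXNRD1 nearest to 0 over 4 libraries.

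SiCIRBP_2, the library high in interferon-stimulated genes and lowest in CIRBP, was also the highest for KEAP1, GCLM, SRXN1, PRDX1 and TXN and the lowest for NFE2L2. NC_1 was the highest NC library for the same 5 genes and for TXNRD1. Neither library is in the 4-library values, and with SiCIRBP_2 alone left out the log2 differences were 0.58 for TXN, 0.44 for PRDX1, 0.46 for SRXN1, 0.40 for NQO1 and -0.40 for NFE2L2. The SiCIRBP libraries kept in the 4-library values also differed in the 16 interferon-stimulated genes, with medians of -0.70 in SiCIRBP_1 and 0.94 in SiCIRBP_3. The part of the interferon response in the 4-library and the 6-library values was not tested.

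By level per transcript length, the order over the 6 libraries was PRDX1 (mean 981 TPM, range 739.9 to 1163), TXN (365, 271 to 474), KEAP1 (116, 108 to 126), NQO1 (99.6, 88.3 to 114), TXNRD1 (64.8, 47.8 to 75.4), NFE2L2 (45.7, 25.6 to 60.2), SRXN1 (36.5, 29 to 50.5), GCLM (27.8, 23.1 to 32.7) and GCLC (17.3, 13.5 to 21.6). The ranges of KEAP1 and NQO1 overlapped, as did those of TXNRD1 and NFE2L2, of NFE2L2 and SRXN1, and of SRXN1 and GCLM. The ranges of the other neighbours in the order were separate. Within each single library TXNRD1 stood above NFE2L2 and SRXN1 above GCLM. KEAP1 stood above NQO1 except in SiCIRBP_1, where both were at 114 TPM. SRXN1 stood above NFE2L2 in SiCIRBP_2 and SiCIRBP_3 and below it in the other libraries.

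Some of the annotated sequence of these genes is shared with other genes, which can split reads between them. Of the 31-base words in SRXN1 transcripts, 84.9% also occur in AL121758.1, a same-strand gene that had at most 0.35 CPM. PRDX1 overlaps MMACHC on the opposite strand by 2347 bases, and MMACHC was at 8.13 to 15.78 CPM, far below PRDX1. The counting strand is not given in the sources used here, so reads in that overlap cannot be assigned. The share of words found in any other gene was 31.2% for PRDX1 (22.3% in MMACHC), 18.4% for NQO1, 18.2% for NFE2L2 and 9.6% or less for TXN, GCLC, GCLM, KEAP1 and TXNRD1. Of the pathway genes named below, MAFK shares 17.5% with TMEM184A, SQSTM1 17.1% with MRNIP and CBR1 17.4% with AP000688.1.

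The wider pathway was described with 78 further genes in 5 lists, of which 77 were matched and 72 tested. Over 4 libraries 16 of the 72 passed, 9 upwards and 7 downwards, where 19.4% of all genes passed, 9.62% upwards and 9.76% downwards, so the count was near that over all genes. The median log2 difference was 0.07 over 4 libraries and 0.16 over 6, against 0.00 and 0.01 over all genes. Over 6 libraries edgeR passed 0 and DESeq2 passed 6 of the 72, where it passed 9.3% of all genes. The SiCIRBP libraries lay wholly above the NC libraries for 20 of the 72 and wholly below for 5, against the 16.2% and 16.6% of all genes given above. None of the 16 changed sign between the 4-library and the 6-library fit, and the 6 that DESeq2 passed over 6 libraries were MAFK, CUL3, PRDX4, HMOX1, CBR1 and OSGIN1. In log2(TPM + 1) over 4 libraries limma passed only 8, which were MAFK, MAFF, MAFG, CUL3, PRDX4, SOD1, HMOX1 and CBR1. The count depended on single libraries, with 2 passing without NC_2, 1 without NC_3, 50 without SiCIRBP_1 and 39 without SiCIRBP_3, and so did the count over all genes, of which 1.04%, 0.403%, 44.3% and 40.2% passed in those fits.

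**Figure D3:**
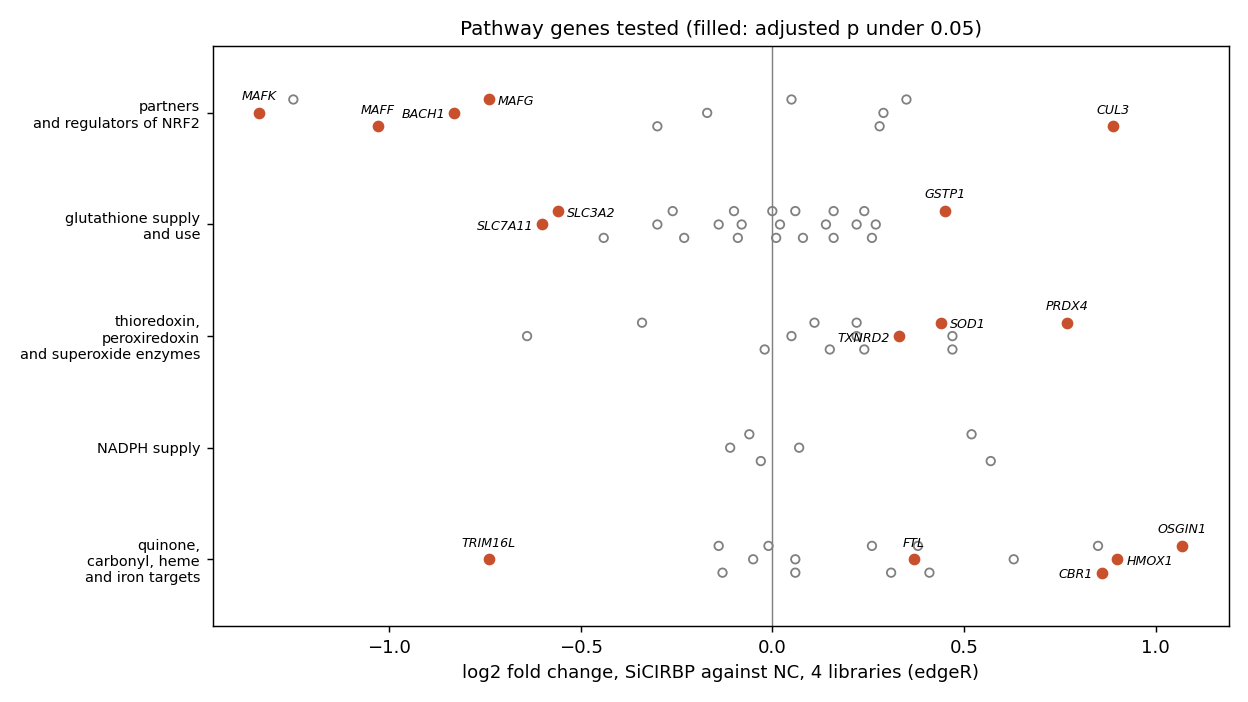
Log2 fold change of SiCIRBP against NC over 4 libraries (horizontal axis, edgeR) for the 72 pathway genes tested, 1 point per gene in rows by list, filled where the adjusted p was under 0.05. Of the filled points in the first row, the small MAF genes and BACH1 lie at the left and CUL3 at the right. The NADPH row has no filled point.

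Of the partners and regulators of NRF2, 5 of 12 passed over 4 libraries, 1 up and 4 down, where 9.62% of all genes passed upwards and 9.76% downwards. The list median was -0.23 over 4 libraries and -0.02 over 6. The 3 small MAF genes, which encode the proteins that pair with NRF2 on DNA, all fell over 4 libraries. MAFK was at 143, 249 and 278 CPM in NC and at 103, 98.8 and 106 CPM in SiCIRBP, with NC_1 standing between the groups, and its 4-library difference was -1.34 (SE 0.09, edgeR adjusted p = 0.00262), against -1.13 over 6 (edgeR adjusted p = 0.0913). MAFF differed by -1.03 (edgeR adjusted p = 0.00605) over 4 libraries and by -0.48 over 6 (edgeR adjusted p = 0.341). MAFG differed by -0.74 (edgeR adjusted p = 0.00948) over 4 and by -0.53 over 6 (edgeR adjusted p = 0.130). MAFF overlapped between the groups over 6 libraries, since SiCIRBP_2 at 37.3 CPM exceeded NC_1 at 25.9 CPM. BACH1, a heme-sensing repressor that occupies the same response elements, fell by 0.83 on the log2 scale (edgeR adjusted p = 0.0102) over 4 libraries and differed by -0.56 over 6 (edgeR adjusted p = 0.155), but in log2(TPM + 1) its difference did not pass (limma adjusted p = 0.497). CUL3, the scaffold of the ligase that KEAP1 serves, rose by a log2 difference of 0.89 over 4 libraries (edgeR adjusted p = 0.00627), against 0.73 over 6 (edgeR adjusted p = 0.1), from 56.3, 39.8 and 37.4 CPM to 66.9, 78.4 and 75.6 CPM. SQSTM1, the autophagy receptor that can sequester KEAP1, was at 345, 367 and 362 CPM in NC and at 313, 677 and 279 CPM in SiCIRBP, so that SiCIRBP_2 alone was high, and it did not pass (log2 -0.30 over 4 libraries, edgeR adjusted p = 0.0518), and its sign turned over 6 (log2 0.24, edgeR adjusted p = 0.650).

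Among targets for quinones, carbonyls, heme and iron, 5 of 17 passed over 4 libraries, 4 up and 1 down, against 9.62% and 9.76% of all genes, with a median of 0.31 over 4 libraries and 0.28 over 6. HMOX1, heme oxygenase 1, stood at 124, 136 and 125 CPM in NC and at 214, 195 and 273 CPM in SiCIRBP. It was higher in all 3 SiCIRBP libraries, with a 4-library log2 difference of 0.90 (SE 0.13, edgeR adjusted p = 0.00929) and a 6-library difference of 0.82 (edgeR adjusted p = 0.0869). CBR1, a carbonyl reductase, rose by 0.86 (edgeR adjusted p = 0.00726), OSGIN1, an oxidative stress-induced growth inhibitor, by 1.07 at a low level of at most 11.7 CPM (edgeR adjusted p = 0.0220), and FTL, the ferritin light chain, by 0.37 (edgeR adjusted p = 0.0206). The 6-library differences were 0.71 for CBR1 (edgeR adjusted p = 0.0885), 1.51 for OSGIN1 (0.1) and 0.26 for FTL (0.266). FTL overlapped between the groups over 6 libraries, since SiCIRBP_2 at 1306 CPM was below NC_1 at 1318 CPM. FTL shares 33.3% of its 31-base words with other genes, chiefly FTLP3. TRIM16L differed by -0.74 over 4 libraries (edgeR adjusted p = 0.0349) and by -0.43 over 6 (edgeR adjusted p = 0.284). Its groups overlapped over 6 libraries, since SiCIRBP_2 at 6.73 CPM exceeded NC_1 at 5.99 CPM. It shares 51.1% of its words with TRIM16, which makes its count uncertain.

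Thioredoxin, peroxiredoxin and superoxide enzymes gave 3 of 14 passing over 4 libraries, all upwards. Of all genes 19.4% passed, 9.62% upwards and 9.76% downwards. The list median was 0.22 over 4 libraries and 0.27 over 6. PRDX4, the peroxiredoxin of the endoplasmic reticulum, was at 72.1, 58.0 and 52.5 CPM in NC and 94.0, 133 and 94.2 CPM in SiCIRBP, a log2 difference of 0.77 over 4 libraries (SE 0.09, edgeR adjusted p = 0.00648) and 0.81 over 6 (edgeR adjusted p = 0.0975). SOD1, the cytosolic superoxide dismutase, rose by 0.44 over 4 libraries (edgeR adjusted p = 0.0147), and its difference over 6 was 0.37 (edgeR adjusted p = 0.125). TXNRD2, the mitochondrial thioredoxin reductase, rose by 0.33 over 4 libraries (edgeR adjusted p = 0.0498) but did not pass there with DESeq2 (adjusted p = 0.0608). Over 6 libraries the TXNRD2 difference was 0.31 (edgeR adjusted p = 0.151). TXNIP, which binds and inhibits thioredoxin, was at 4.62 CPM or less in the NC libraries and at 1.85, 18.6 and 3.88 CPM in SiCIRBP, and did not pass over 4 libraries (log2 -0.64, edgeR adjusted p = 0.236) or over 6, where its sign was the opposite (log2 1.14, edgeR adjusted p = 0.379).

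Of the glutathione genes 3 of 23 passed over 4 libraries, 1 up and 2 down, against 19.4% of all genes, with a median of 0.01 over 4 libraries and 0.03 over 6. The light and heavy chains of the cystine importer, SLC7A11 and SLC3A2, fell by 0.60 (edgeR adjusted p = 0.0335) and 0.56 (edgeR adjusted p = 0.0291) on the log2 scale over 4 libraries, but both overlapped between the groups over 6, where NC_1 was at 11.3 and 216 CPM and the differences were -0.58 (edgeR adjusted p = 0.184) and -0.24 (edgeR adjusted p = 0.566). Both chains are also known targets of ATF4, whose list was low in NC_1 at -0.25 and in SiCIRBP_3 at -0.35, and its part in these differences was not tested. GSTP1, a glutathione transferase, rose by 0.45 over 4 libraries (edgeR adjusted p = 0.0175), against 0.36 over 6 (edgeR adjusted p = 0.129). None of the 6 genes of NADPH supply passed.

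**Figure D4:**
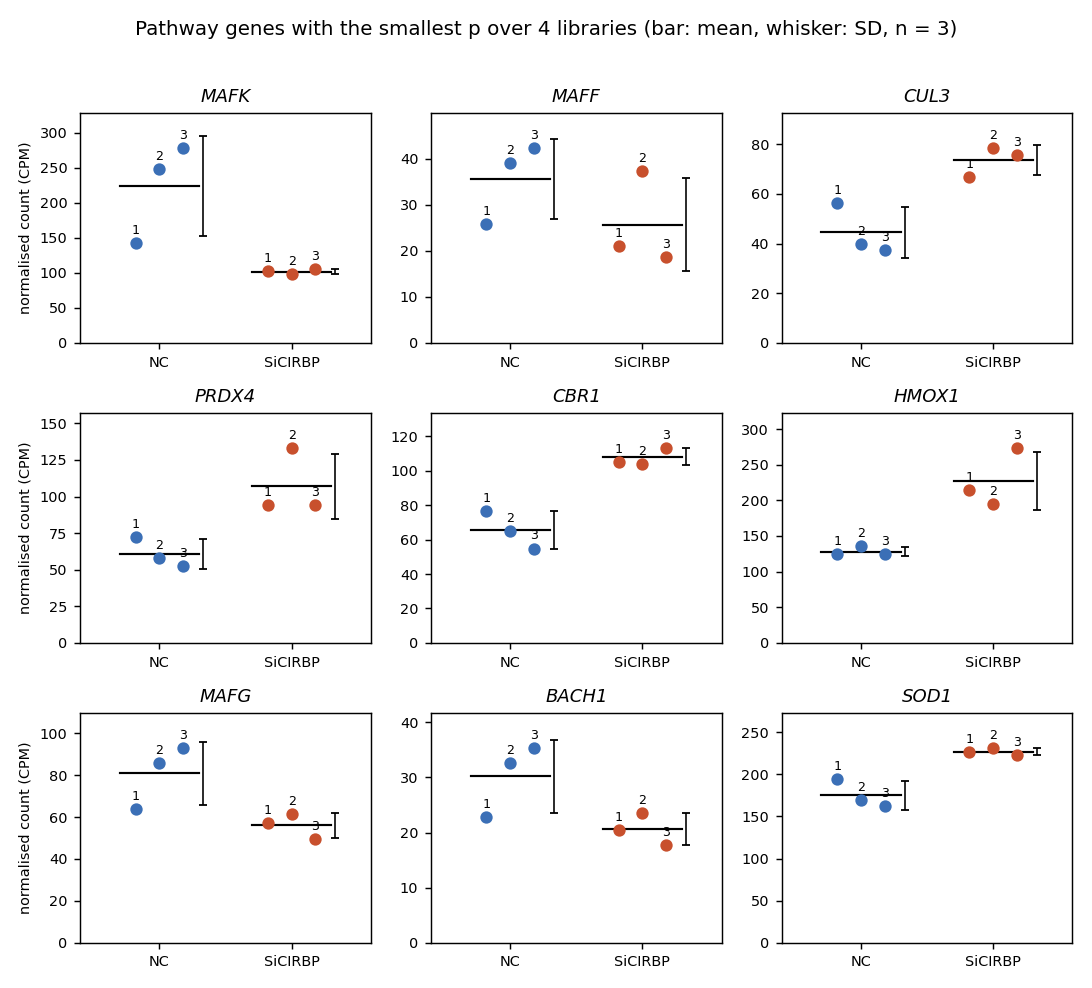
Normalised count (CPM, vertical axis from 0) in each library of the 9 pathway genes with the smallest p over 4 libraries, drawn as for the 9 genes above. NC_1 lies on the SiCIRBP side of the other NC libraries for MAFK, MAFF, MAFG, BACH1, CUL3, PRDX4, CBR1 and SOD1, and over 6 libraries the groups overlap for MAFF and BACH1.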

How the data were processed

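RNA was extracted with TRIzol from 3 NC and 3 SiCIRBP samples and sequenced as Illumina libraries per the labels. The submitters' processing notes name fastp, HISAT, RSEM and hg38, without versions or settings, and the annotation release and strand are not given in the sources used here. The authors deposited an estimated count per gene and library, not normalized and not always whole, and a TPM value, in which the estimated count is scaled by assigned transcript length and library. The deposited table also holds the authors' own group means, fold changes and p-values, which were not used. Estimated counts were rounded and tested with edgeR 4.0.16 (TMM, filterByExpr, quasi-likelihood) in R 4.3.3 across all genes, over NC_2, NC_3, SiCIRBP_1 and SiCIRBP_3 as in the study's text and over all 6 libraries, and a Benjamini-Hochberg adjusted p under 0.05 counted as passing. CPM values used TMM factors over the 6 libraries. DESeq2 1.42.0, limma 3.58.1 on log2(TPM + 1), other size factors, other filters, a replicate block and leaving out each library were alternatives. The edgeR fit was also run on simulated counts with set changes larger than those of the 9 genes. That run does not cover changes of their size. Gene positions and shared words came from GENCODE 29 (GRCh38). Text names all 9 genes, each list gene that passed over 4 libraries, SLC7A11, HMOX1, SQSTM1 and TXNIP, CIRBP, and the 5 genes most like NQO1. Another gene that this rule names is not reported here. SOD2 was left out because its symbol was not matched to an identifier in the expression table. The 9 genes and the lists were chosen with earlier results of these data known. Each of the 9 genes had 909 or more reads in every library. The part of counting error in the spread between libraries was not tested.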

Additional observations from a re-analysis of the deposited data

How the results depend on the processing

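Of the 9 genes, 5 passed over 4 libraries by edgeR, and also with DESeq2, RLE size factors, no filter and a filter of 10 counts. With limma on log2(TPM + 1) 2 passed, over all 6 libraries 0, and with each library left out 0 to 9. Among the pathway list genes, 16 passed over 4 libraries, 26 with no filter on low counts, 8 with limma on log2(TPM + 1), 0 over all 6 libraries and 1 to 50 with each library left out. Over all 6 libraries 0 of the 9 genes passed by edgeR, 5 with DESeq2, 2 with no filter and 0 to 3 with each library left out, the 3 being NQO1, SRXN1 and TXN without SiCIRBP_2. Over all genes, the 2989 that passed over 4 libraries became 168 without NC_2, 64 without NC_3, 7048 without SiCIRBP_1, 6418 without SiCIRBP_3 and 1208 with limma on log2(TPM + 1). Of the 9 genes, the only reversal of sign was TXNRD1 over 4 libraries, at 0.08 without SiCIRBP_3, in a range of -0.34 to 0.08. Of the other pathway genes named, SQSTM1 (-0.30 to 0.24) and TXNIP (-0.64 to 1.14) changed sign between 4 and 6 libraries, and their other alternatives were not tabulated. The causes were not tested.

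The deviations of same-numbered libraries from their group means correlated at -0.118, 0.006 and -0.026. These values gave no sign of pairing by replicate number, but with 3 libraries in a group they cannot show that the libraries were unpaired. Under a replicate block over 6 libraries 0 of the 9 genes passed, with log2 differences of 0.66 for TXN and -0.55 for NFE2L2, and 1 gene of all did. Leaving out 1 of the 4 libraries leaves 1 library in a group, which is then taken to vary like the others.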

Other observations

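The assigned transcript length that links an estimated count to its TPM value can differ between libraries when the mix of isoforms assigned to a gene differs. Taken as the ratio of count to TPM and scaled by library, this length was nearly the same in both groups for SRXN1, PRDX1, TXN and KEAP1, with log2 differences between -0.00 and 0.01 for SiCIRBP against NC. For NFE2L2 and NQO1 it was 0.04, for TXNRD1 0.05 and for GCLC 0.08. For GCLM it was -0.21, at percentile 3.47 of 10467 genes, whose 5th and 95th percentiles were -0.18 and 0.19, and its range was 0.07 to 0.14 in the NC libraries and -0.19 to -0.03 in the SiCIRBP libraries. The GCLM transcripts were therefore assigned a shorter mean length in each SiCIRBP library, at 0.864 of the NC length, and the difference in TPM was larger than the difference in counts. For CIRBP itself the value was 0.40, at percentile 99.3. Which isoforms were assigned cannot be read from a table per gene, and no test was run on these ratios.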
